A study of Mus musculus with 6 samples.

Results

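The genes described here are 10 markers of fibro-adipogenic progenitors: Pdgfra, Cd34, Ly6a, Dcn, Clec3b, Cxcl14, Gsn, Dpt, Pi16 and Postn. They were taken by symbol from the 21572 gene symbols in the deposited tables, and each matched 1 entry. Polyadenylated RNA was sequenced from the soleus, a slow hindlimb muscle, of adult C57BL/6 mice. There were 6 libraries in 3 groups of 2: WTSolInn, innervated soleus of wild-type (WT) mice; WTSolDen, WT soleus denervated for 3 days; and Dach2-/-/Hdac9-/-SolDen, soleus denervated for 3 days from mice labelled as lacking Dach2 and Hdac9. The last group is called DKO-labelled below. It was compared with WT muscle of the same treatment and with innervated WT muscle, and innervated muscle of the knockout was not analysed here.

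Fibro-adipogenic progenitors are mesenchymal cells that lie between muscle fibres. They carry the PDGF receptor PDGFRα, make much of the muscle's extracellular matrix, support satellite cells during repair, and can turn into fibroblasts or fat cells. They are known to respond to loss of the nerve. The RNA here came from whole muscle, so fewer cells of a type and less RNA per cell cannot be told apart.

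Positions given below span the whole gene on mm9, as listed in the deposited tables, which do not say whether starts count from 0 or 1. Libraries held 25529434 to 46305449 assigned fragments, and the markers had from 315 to 65033 fragments each. Levels are the authors' FPKM, which divides a gene's fragments by transcript length after scaling each library. Fold changes are on a log2 scale ± SE and, like their p-values, come from quasi-likelihood fits of fragment counts in edgeR, adjusted by Benjamini-Hochberg over 12247 tested genes, all 10 markers among them. Genes were called at an adjusted p under 0.05. The labels do not say that the 2 libraries of a group came from separate animals, so p-values reflect only how these libraries varied, and that variation may be technical. Dach2 was at 0.519 to 0.536 FPKM in WT denervated and 0.681 to 0.961 in DKO-labelled libraries, and Hdac9 at 0.285 to 1.83 and 0.181 to 0.534. Whole-gene values include exons outside a deletion, so they do not check the genotype. Muscle fibre markers summed to between 14484 and 44236 FPKM in every library, although Acta1, a defining gene of the fibre, was listed at 0 in all 6. The second denervated WT library had the lowest FPKM of the 6 for 7 of the 10 markers. Summed over the markers, FPKM was 963 and 711 in the first and second denervated WT libraries and 775 and 714 in the DKO-labelled ones. Which of the denervated WT libraries is the unusual one was not tested.

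On denervation of WT soleus, Cxcl14 rose 3.46-fold while Clec3b, Dpt, Gsn and Dcn fell 3.97-fold, 2.86-fold, 2.05-fold and 1.48-fold. Pdgfra, the receptor that defines the cells, was at 5.64 ± 1.40 FPKM in innervated and 4.85 ± 1.36 in denervated WT muscle (SD, n = 2), and did not pass the test. Cd34, Ly6a, Pi16 and Postn had lower means after denervation without passing. In all, 1 marker rose, 4 fell and 5 did not pass, against 14.4% of all tested genes called higher and 14.3% called lower in this comparison (28.7% in either direction). FPKM of 6 markers was lower and of 1, Cxcl14, higher in both denervated than in both innervated libraries, against 38.5% and 32.7% of tested genes, and 3 markers overlapped. The median log2 change of the 10 markers was -0.998, and that of all tested genes was 0.00. The first and the second libraries of the groups were also compared separately. Each of the 10 markers changed in the same direction in both. The share of all tested genes that did so was not counted. That pairing follows accession order and is not given by the titles. For the 3 overlapping markers, Pdgfra, Pi16 and Postn, the first denervated library lay above the second innervated one.

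**Figure D1:**
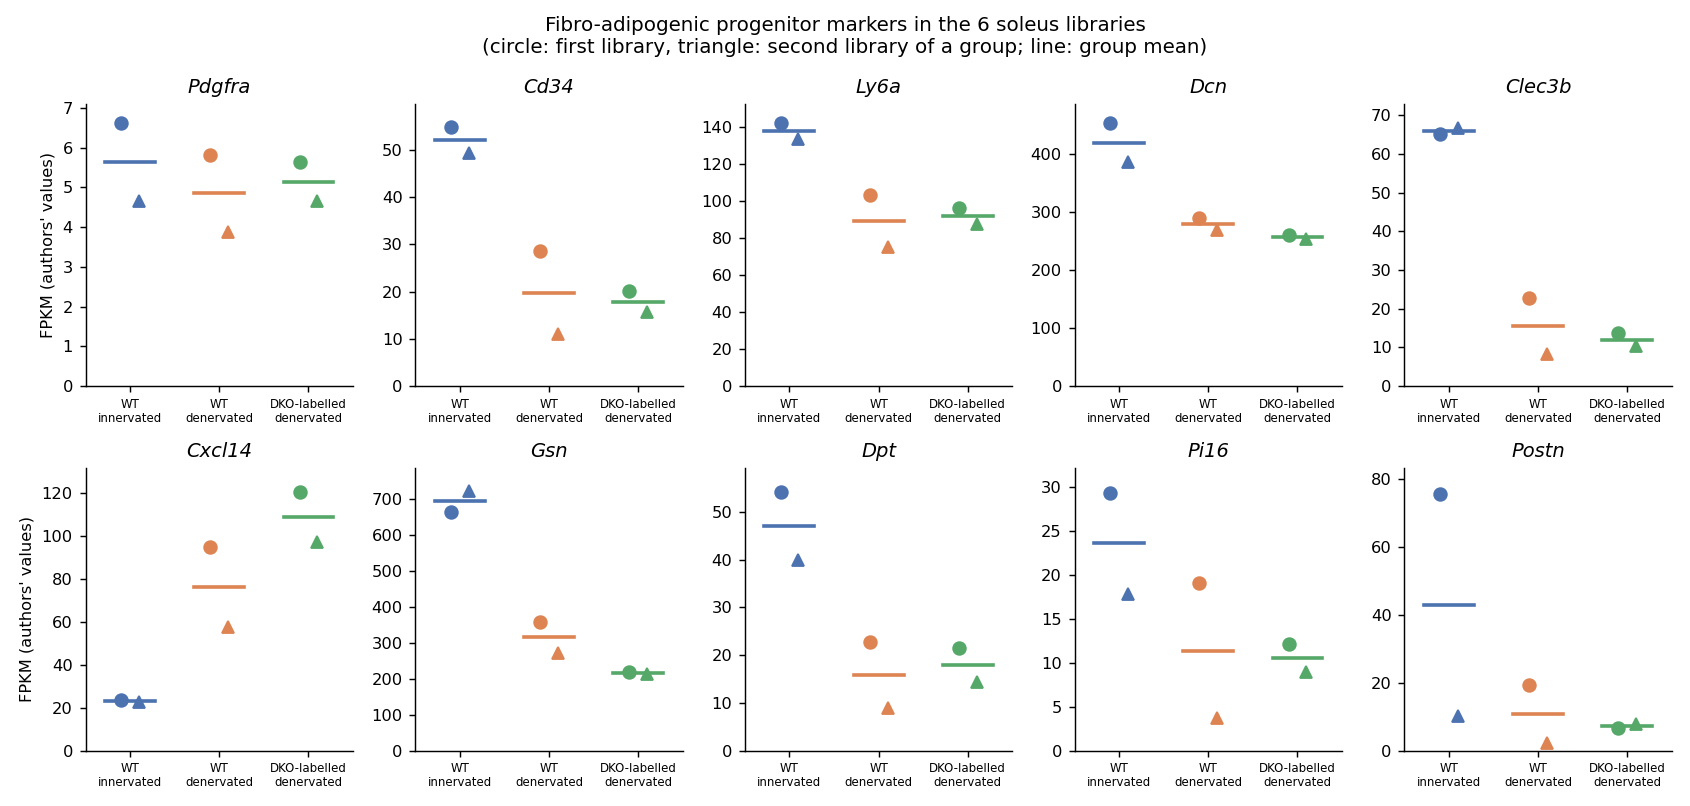
FPKM (vertical axis, from 0) of each marker in innervated WT, denervated WT and denervated DKO-labelled soleus. Circles are the first and triangles the second library of a group, and lines are group means. Cxcl14 lies between 22.5 and 23.7 in innervated libraries and at 57.5 or more in all 4 denervated ones, while for Pdgfra the groups overlap.

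Among the surface proteins, Pdgfra (chr5:75548315-75594229), a receptor tyrosine kinase for PDGF, had 6.63 and 4.65 FPKM in innervated muscle, 5.81 and 3.89 in the WT denervated libraries, and 5.64 and 4.65 in the DKO-labelled ones. All 3 groups overlapped, and the first library of each group was the higher one. Its log2 change on denervation was -0.17 ± 0.26 (edgeR adjusted p = 0.639), with a 95% interval from -0.80 to 0.46. That interval runs from 0.574 to 1.37 times the innervated level. Its sign turned in 3 of 17 alternatives, with library totals alone (0.089), without the first innervated library (0.11) and without the second WT denervated one (0.081). With library totals alone the median of all tested genes was 0.27.

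Cd34 (chr1:196765014-196803153), a sialomucin that is also carried by endothelial cells, had 54.7 and 49.3 FPKM in innervated muscle, 28.6 and 10.96 in the WT denervated libraries, and 20.0 and 15.6 in the DKO-labelled ones. Both denervated groups lay below the innervated one, and the 2 denervated WT libraries differed 2.61-fold. The log2 change in WT was -1.34 ± 0.42 (edgeR adjusted p = 0.0547), just outside the threshold, and was -0.89 between the first and -2.11 between the second libraries. It was called in 8 of 17 alternatives, with DESeq2 (adjusted p = 0.00550) and a fit with the run of sample numbers as a block (-1.46, edgeR adjusted p = 0.0154) among them. Without the first WT denervated library it was -2.20 and without the second -0.81, both called. The alternatives' adjusted p ranged from 0.00168 to 0.204.

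Ly6a (chr15:74825306-74828318), the surface antigen Sca-1, which endothelial cells share, had 142 and 133 FPKM in innervated muscle, 103 and 74.9 in the WT denervated libraries, and 96.2 and 87.4 in the DKO-labelled ones. Denervated libraries of both groups lay below the innervated ones. The log2 change in WT was -0.57 ± 0.19 (edgeR adjusted p = 0.0611), and 3 of 17 alternatives called it. These were DESeq2, a fit with the run of sample numbers as a block, and the fit without the first WT denervated library, where it was -0.82. The alternatives' adjusted p ranged from 0.00953 to 0.263. Ly6a belongs to a family of close copies, and its fragment counts, like those of Cd34, were not whole numbers, as where fragments are shared out between entries. The Cd34 locus also overlaps the entry C030002c11rik, and whether strand was used is not stated, so both values are uncertain.

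Endothelial cells carry both Cd34 and Ly6a, and markers of these cells were lower after denervation. Of 12 tested, 10 were called lower and 0 higher in denervated WT, with a median log2 change of -1.12. Their summed level was 200 to 239 FPKM in the innervated libraries, 90.5 to 100.04 after denervation of WT and 72.1 to 106 in DKO-labelled muscle, and none of the 12 was at 0. Kdr, the main VEGF receptor of endothelium, fell 3.60-fold and the tight junction gene Cldn5 2.52-fold. The part of endothelial RNA in the Cd34 and Ly6a values was not tested.

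Of the 4 matrix genes among the markers, Clec3b, Dpt and Dcn were called lower and Postn did not pass. Clec3b (chr9:123060063-123066550), which encodes the plasminogen-binding protein tetranectin, had 65.2 and 66.6 FPKM in innervated muscle, 22.8 and 8.32 in the WT denervated libraries, and 13.7 and 10.3 in the DKO-labelled ones. The innervated libraries were close together and far above all 4 denervated ones. Its log2 change in WT was -1.99 ± 0.44 (edgeR adjusted p = 0.0208), lower than that of all but 2.94% of tested genes, with -1.44 and -2.89 between the first and second libraries. Without the first WT denervated library it was -2.90 and without the second -1.45, both called.

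Dpt (chr1:166726862-166754397), which encodes dermatopontin, a matrix protein that binds decorin, had 54.1 and 40.0 FPKM in innervated muscle, 22.8 and 8.92 in the WT denervated libraries, and 21.4 and 14.3 in the DKO-labelled ones. Every denervated library was below both innervated ones. The log2 change was -1.52 ± 0.44 (edgeR adjusted p = 0.0460), close to the threshold, and 8 of 17 alternatives lost the call, among them those without any 1 library other than the first WT denervated one, where the adjusted p ranged from 0.0603 to 0.208. It was -2.35 without the first WT denervated library, where it was called, and -0.999 without the second.

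Dcn (chr10:96942133-96980796) encodes decorin, a proteoglycan that binds collagen fibrils and TGF-beta. It had 453 and 385 FPKM in innervated muscle, 289 and 269 in the WT denervated libraries, and 260 and 254 in the DKO-labelled ones. The groups did not overlap, but the difference was small, at -0.56 ± 0.17 on the log2 scale (edgeR adjusted p = 0.0469), and the call was lost in 10 of 17 alternatives. These included each fit without 1 library other than the first WT denervated one, at an adjusted p from 0.0773 to 0.278. Tendon also makes Dcn, and tenocyte markers moved too: 4 of 8 tested fell and 1, Scx, rose, with a median of -1.62. Their summed level was 177 to 237 FPKM in the innervated libraries, 118 to 160.4 after denervation of WT and 159.6 to 163 in DKO-labelled muscle, with none of the 8 at 0, and their part in the Dcn value was not tested.

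Postn (chr3:54165028-54194963) encodes periostin, a matricellular protein of activated fibroblasts, tendon and periosteum. It had 75.5 and 10.2 FPKM in innervated muscle, 19.3 and 2.11 in the WT denervated libraries, and 6.73 and 7.71 in the DKO-labelled ones. The 2 libraries of a group differed 7.40-fold in innervated and 9.15-fold in denervated WT muscle, and the WT groups overlapped. The log2 change was -1.96 ± 1.14 (edgeR adjusted p = 0.231). Without the first innervated WT library it turned to 0.10, and without the first denervated WT library it was -4.30 and was called. Without the second denervated WT library it was -1.11 and without the second innervated one -2.77, neither of them called.

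Cxcl14 (chr13:56390005-56397912) was the one marker that rose. It encodes a secreted chemokine, and it had 23.7 and 22.5 FPKM in innervated muscle, 95.02 and 57.5 in the WT denervated libraries, and 121 and 97.5 in the DKO-labelled ones. The groups were ordered without overlap from innervated WT through denervated WT to DKO-labelled muscle. The step between the denervated groups was not called (edgeR adjusted p = 0.854), and 14.7% of tested genes lay higher there without overlap. Its log2 change in WT was 1.79 ± 0.26 (edgeR adjusted p = 0.00654), above that of 96.9% of tested genes, and was 2.06 between the first and 1.44 between the second libraries. Its rank by mean FPKM among the 10 markers went from the ninth place in innervated WT to the fourth in denervated WT and the third in DKO-labelled muscle.

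Pi16 (chr17:29455826-29465847) encodes a secreted peptidase inhibitor that marks a subset of fibroblasts in the adventitia. It had 29.3 and 17.8 FPKM in innervated muscle, 19.0 and 3.66 in the WT denervated libraries, and 12.1 and 8.91 in the DKO-labelled ones. The denervated WT libraries differed 5.19-fold and overlapped the innervated ones. The log2 change was -0.96 ± 0.68 (edgeR adjusted p = 0.315), and without the first denervated WT library it was -2.60 and was called. Without the second it was -0.22 (adjusted p = 0.655).

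Gsn (chr2:35137959-35163412) encodes gelsolin, which severs and caps actin filaments and is also secreted. With 664 and 722 FPKM in innervated WT it was the highest of the 10 there, and it had 358 and 272 in the WT denervated libraries and 218 and 214 in the DKO-labelled ones. The groups were ordered without overlap, in the opposite order to Cxcl14. Here too the step between the denervated groups was not called (edgeR adjusted p = 0.769), and 15.1% of tested genes lay lower there without overlap. Its log2 change in WT was -1.03 ± 0.19 (edgeR adjusted p = 0.0126). Gelsolin is not confined to fibroblasts, and muscle fibre markers moved with it: 7 of 10 tested were called lower and 0 higher, at a median of -1.17. Their summed level was 38892 to 44236 FPKM in the innervated libraries, 16759 to 18436 after denervation of WT and 14484 to 14843 in DKO-labelled muscle, with Acta1 at 0 throughout, and their part in the Gsn value was not tested.

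The calls for Cxcl14, Clec3b and Gsn were kept in 15 of 17 alternatives and lost without either innervated WT library, when the adjusted p ranged from 0.0633 to 0.108 and 0 of the 10 markers were called. In those fits 468 and 202 of the 12247 genes were called, against 3512 with all libraries. The log2 changes were then 1.84 and 1.74 for Cxcl14, -2.00 and -1.98 for Clec3b, and -1.09 and -0.98 for Gsn. Scaling by library totals alone moved the median of all tested genes to 0.27, and 3 markers, Cxcl14, Clec3b and Gsn, were then called. Over all tested genes that scaling called 3331 higher and 1144 lower, against 1759 and 1753 with TMM.

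**Figure D2:**
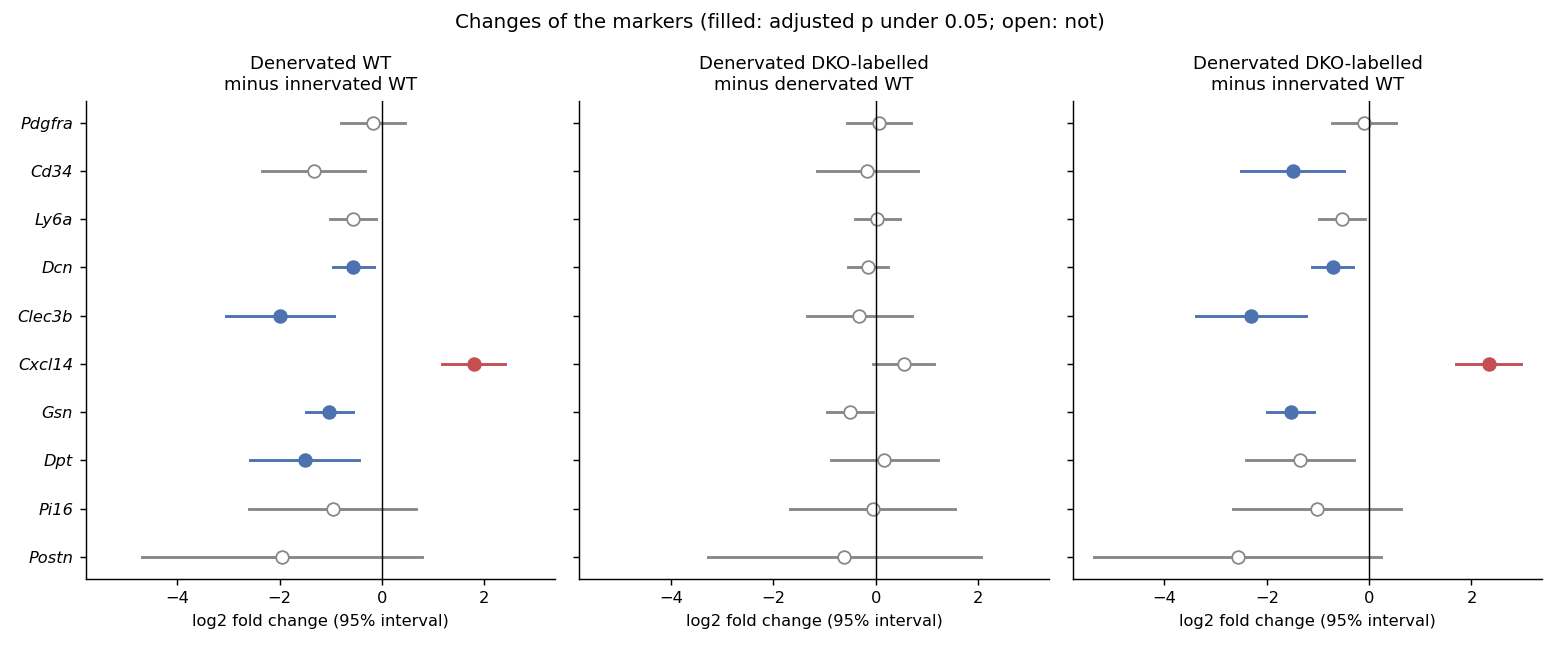
Log2 fold changes of the 10 markers (points) with 95% intervals (lines) in the 3 comparisons; filled points had an adjusted p under 0.05. Cxcl14 is to the right of 0 in both comparisons with innervated muscle, and in the middle panel, where both groups are denervated, no point is filled.

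Promoters are shown for a marker that rose, one that fell and one that did not pass. RefSeq start sites on build GRCm38.p6 gave 10 windows for 7 of the 10 markers, and Ly6a, Dcn and Clec3b had none. The windows hold the 250 bases before a start, written 5′ to 3′ along the gene, and this build differs from the mm9 of the deposited tables. Capitals mark matches on either strand to the E-box CANNTG, to which myogenic and other basic helix-loop-helix factors bind, and to TTCNNNGAA, the form bound by STAT factors.
Cxcl14 (chr13:56296552-56296801, reverse strand): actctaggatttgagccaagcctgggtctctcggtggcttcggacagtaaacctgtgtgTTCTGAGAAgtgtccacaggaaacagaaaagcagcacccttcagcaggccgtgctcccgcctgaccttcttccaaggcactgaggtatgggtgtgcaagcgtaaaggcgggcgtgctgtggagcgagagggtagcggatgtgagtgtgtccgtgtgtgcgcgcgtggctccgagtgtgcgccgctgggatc
Dpt (chr1:164796413-164796662, forward strand): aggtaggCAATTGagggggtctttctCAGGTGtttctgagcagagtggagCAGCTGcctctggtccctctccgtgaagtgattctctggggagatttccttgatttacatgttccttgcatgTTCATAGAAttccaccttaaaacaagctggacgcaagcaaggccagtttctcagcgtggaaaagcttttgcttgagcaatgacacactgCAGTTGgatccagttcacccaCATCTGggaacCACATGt
Pdgfra (chr5:75152001-75152250, forward strand): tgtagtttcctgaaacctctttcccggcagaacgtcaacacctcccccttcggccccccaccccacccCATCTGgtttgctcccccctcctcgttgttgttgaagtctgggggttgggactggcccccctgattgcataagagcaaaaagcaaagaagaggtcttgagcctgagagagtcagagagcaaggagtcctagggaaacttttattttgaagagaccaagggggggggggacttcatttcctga
Cxcl14 had 0 E-boxes and 1 match to TTCNNNGAA, Dpt had 6 and 1, and Pdgfra 1 and 0. Of 32851 windows of that length, 66.2% held CANNTG and 7.02% TTCNNNGAA. Among the 10 windows of the 7 markers the numbers were 5 and 2, and Gsn and Postn had more than 1 window each. The windows with CANNTG included those of several starts of Gsn. The motifs do not overlap each other in the 3 windows shown, and a match is a description of letters only.

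The second comparison asked how denervated DKO-labelled muscle differed from denervated WT muscle. No marker was called: 0 of 10 passed edgeR's test, 1 (Gsn) had an unadjusted p under 0.05, and DESeq2 and limma also called 0. Of all tested genes, 0.0408% were called (0.0245% higher and 0.0163% lower), and 6.11% had an unadjusted p under 0.05. Gsn was lower in both DKO-labelled libraries than in both denervated WT ones, at -0.50 ± 0.19 on the log2 scale (edgeR adjusted p = 0.769), and Cxcl14 was higher in both, at 0.55 ± 0.25 (adjusted p = 0.854). Dcn also did not overlap and lay lower, at -0.15 ± 0.17 (adjusted p = 0.973). Groups did not overlap for 15.1% of all tested genes on the lower side and 14.7% on the higher side.

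The 95% intervals reflect only how these libraries varied, which may be technical. For Pdgfra the interval of the DKO-labelled level ran from 0.681 to 1.62 times that of denervated WT. It ran from 0.753 to 1.39 times for Ly6a and from 0.684 to 1.19 times for Dcn. The intervals were widest for Pi16, from 0.312 to 2.95 times, and Postn, from 0.103 to 4.15 times. The direction depended on the library: 9 of the 10 markers were lower in the first DKO-labelled than in the first denervated WT library, and 2, Dcn and Gsn, were lower in the second pair. For Postn the differences were -1.57 and 1.82, and for Pi16 -0.60 and 1.33. Without the first denervated WT library the log2 difference of Cd34 was 0.70 and that of Clec3b 0.58, both positive, against -0.16 and -0.32 with all libraries.

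Set against innervated WT, DKO-labelled muscle had 1 marker called higher, Cxcl14, and 4 lower, Clec3b, Gsn, Cd34 and Dcn. Of all tested genes, 15.2% were called higher and 16.2% lower (31.4% in either direction). Each of the other comparisons shares libraries with this one, so the values are given side by side and not as separate evidence. The groups compared here differ in both genotype label and denervation, and the parts of these cannot be told apart. Cxcl14 was at 2.34 ± 0.26 (edgeR adjusted p = 0.00272), against 1.79 in denervated WT, and Gsn was at -1.54 ± 0.19 (adjusted p = 0.00363), against -1.03. Clec3b was at -2.31 ± 0.45 (adjusted p = 0.0123), Cd34 at -1.50 ± 0.42 (adjusted p = 0.0382) and Dcn at -0.71 ± 0.17 (adjusted p = 0.0215). Calls for Cxcl14 and Gsn were kept in all 17 alternatives, and with 1 library left out from 2 to 9 markers were called. Those 2 were the only ones left without either innervated WT or either DKO-labelled library. Without the first or the second denervated WT library 9 were called, all but Pdgfra, and calls over all tested genes went from 3843 to 5517 and 5510. Without an innervated or DKO-labelled library they numbered 661 to 2067. Ly6a, Dpt, Pi16 and Postn were lower in both DKO-labelled libraries than in both innervated ones without passing, and in all 8 markers lay lower without overlap, as did 40.9% of tested genes, and Cxcl14 higher, as did 36.4%.

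Levels of the markers differed between libraries of a group in a shared direction. The first library was higher than the second for 8 of 10 markers in innervated muscle, 10 of 10 in WT denervated muscle and 9 of 10 in the DKO-labelled group. In innervated WT the median log2 difference was 0.21 over the markers and -0.017 over all tested genes. In DKO-labelled muscle it was 0.28 and -0.0015, and in denervated WT it was 1.02 and 0.01. Postn, Pi16, Clec3b, Cd34 and Dpt differed most there, by 3.17, 2.36, 1.44, 1.38 and 1.34, whereas Dcn differed by 0.10. The first libraries have the consecutive sample numbers 14043 to 14045 in their titles and the second 14049 to 14051.

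**Figure D3:**
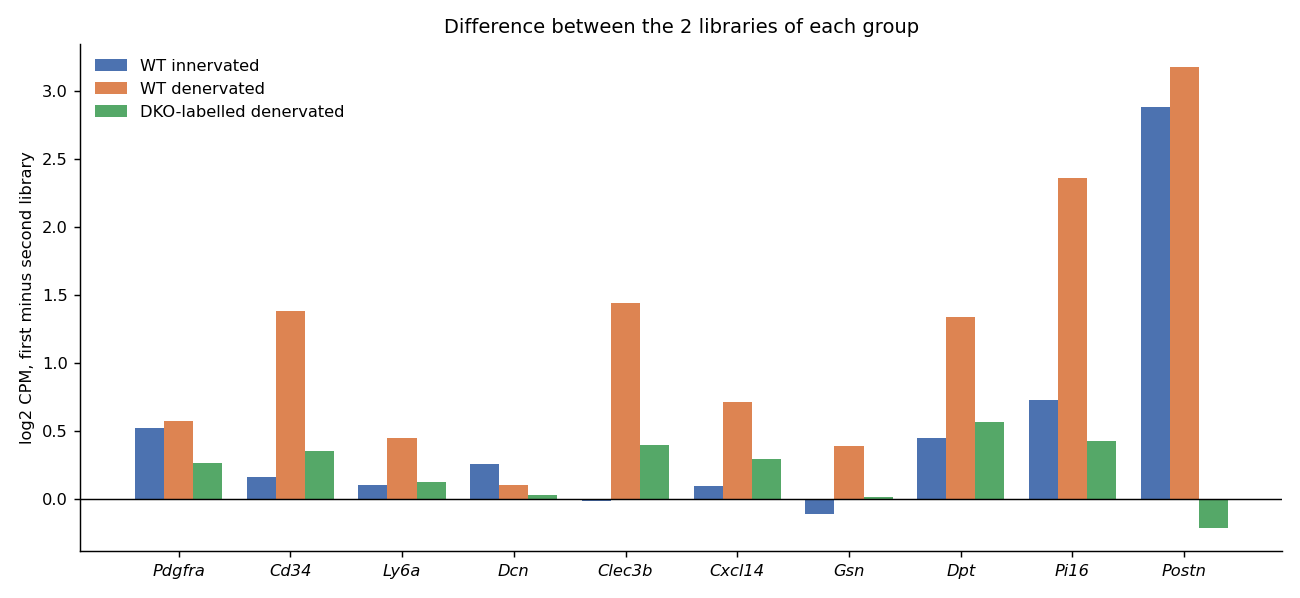
Log2 of TMM-scaled CPM, first minus second library of each group (bars from 0), for the 10 markers. Bars of denervated WT muscle are above 0 for all 10 markers, and Postn differs by 2.88 between innervated, 3.17 between WT denervated and -0.22 between DKO-labelled libraries.

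Per length, the order of mean levels in innervated WT was Gsn (693 FPKM), Dcn (419), Ly6a (138), Clec3b (65.9), Cd34 (52.0), Dpt (47.1), Postn (42.9), Pi16 (23.6), Cxcl14 (23.1) and Pdgfra (5.64). The ranges of Cd34, Dpt and Postn overlapped, as did those of Postn, Pi16 and Cxcl14. The range of Postn also spanned both values of Clec3b. In DKO-labelled muscle Dcn, at 257 ± 4.51 FPKM (SD, n = 2), lay above Gsn, at 216 ± 2.79. Pdgfra was the lowest of the 10 by group mean in all 3 groups. The genes whose profile over the 6 libraries was nearest to that of Pdgfra were Arl6ip1, Stard5 and Praf2. Their root mean square distances were 0.07, 0.09 and 0.09 in mean-centred log2 CPM (counts scaled to library size and TMM factor).

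Other fibroblast and progenitor genes are given by list. In denervated WT 14.4% of all tested genes were called higher and 14.3% lower, which applies to this and the following lists. Of 28 tested here, 0 were called higher, 5 lower and 23 neither in denervated WT, at a median log2 change of -0.92. Their summed level was 935 and 563 FPKM in the first innervated and WT denervated libraries and 630 and 194 in the second ones. Islr, a secreted mesenchymal protein gene, had 37.1 and 24.4 FPKM in innervated and 10.3 and 4.57 in denervated WT, and fell 3.85-fold. Dpp4, a surface peptidase of adventitial fibroblasts, fell 3.46-fold, the chemokine gene Ccl11 1.96-fold and the matrix gene Smoc2 1.82-fold. Ccl11 was lower again in DKO-labelled muscle, at 8.06 and 9.06 FPKM against 13.4 and 14.8 in denervated WT, and did not pass (log2 -0.77 ± 0.17, edgeR adjusted p = 0.369).

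Of 6 PDGF ligand and receptor genes 5 were tested, Pdgfra among them, with Pdgfc too low. The ligands Pdgfb and Pdgfd and the receptor Pdgfrb, which is carried by pericytes, were called lower in denervated WT. Pdgfb, made chiefly by endothelium, had 10.1 and 13.03 FPKM in innervated and 2.65 and 3.69 in denervated WT, and fell 3.47-fold, while Pdgfd and Pdgfrb fell 2.54-fold and 1.92-fold. Smooth muscle and pericyte markers, the list that also holds Pdgfrb, fell at 7 of 9 tested and rose at 0, with the contractile genes Acta2 and Myh11 2.75-fold and 2.58-fold lower.

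Among 9 signals that fibro-adipogenic progenitors are known to secrete, 6 were tested, 2 rose and 0 fell, with Il6, Wisp1 and Lif too low. The neurotrophic factor gene Gdnf, which Schwann cells make too, had 0.176 and 0.273 FPKM in innervated and 1.599 and 3.11 in denervated WT, and rose 10.9-fold. Fst, the activin antagonist follistatin, rose 2.84-fold, from 7.56 and 3.53 to 21.1 and 10.1 FPKM, close to the threshold (edgeR adjusted p = 0.0483). Which cells of the whole muscle the Gdnf and Fst RNA came from was not tested. In the list of TGF-beta and fibrosis genes 2 of 14 tested rose and 1 fell. The protease inhibitor gene Timp1 rose from 6.48 and 3.61 to 37.8 and 11.8 FPKM, and the receptor gene Tgfbr1 rose 2.82-fold.

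Adipocyte markers, genes of the fat cells that these progenitors can form, fell at 8 of 9 tested and rose at 0. Their summed level was 995 to 1018 FPKM in the innervated libraries, 310.03 to 343 after denervation of WT and 275 to 403 in DKO-labelled muscle, with none at 0. The lipid droplet gene Plin1 fell 7.32-fold and Cfd, the adipokine adipsin, 5.20-fold. Of 12 macrophage and leukocyte markers only Cd68 was called, 3.00-fold higher. Satellite cell markers rose at 1 of 6 tested, the cadherin Cdh15. Schwann cell markers fell at 5 of 8 tested and rose at 1, the neurotrophin receptor gene Ngfr, 4.35-fold higher. Between denervated DKO-labelled and denervated WT muscle edgeR called 0 genes of each of these lists, and 0.0408% of all tested genes. Set against innervated WT, DKO-labelled muscle had 0 higher and 5 lower among other fibroblast genes, 0 and 11 among endothelial, 0 and 7 among adipocyte, 0 and 8 among muscle fibre and 1 and 0 among tenocyte markers. In that comparison 15.2% of all tested genes were called higher and 16.2% lower.

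**Figure D4:**
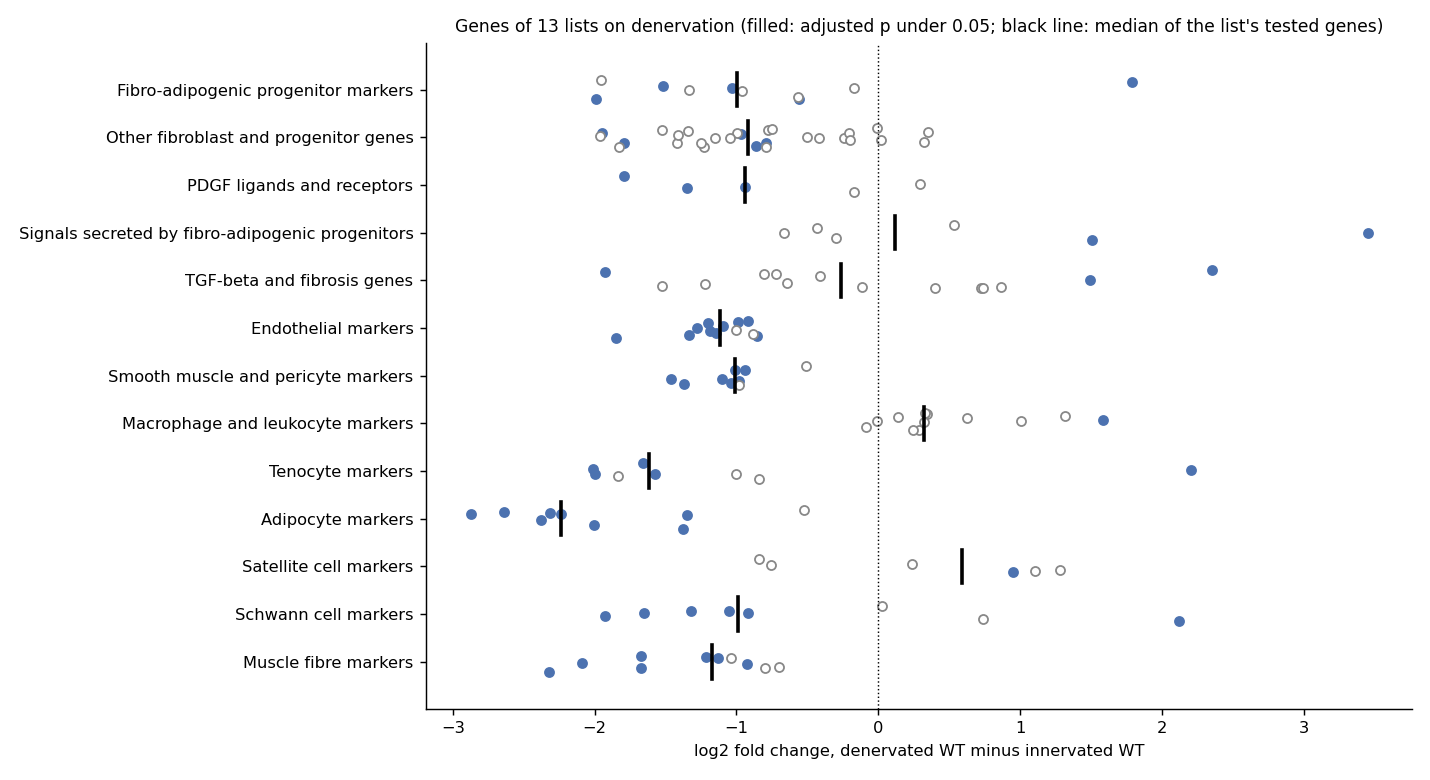
Log2 fold change on denervation of WT soleus (horizontal axis) for every tested gene of the 10 markers and of the 12 other lists. Filled points had an adjusted p under 0.05 and black lines are medians, which lie at -0.998 for the markers, -0.92 for other fibroblast genes, -1.12 for endothelial and -2.24 for adipocyte markers.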

How the data were processed

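Per the submitters' processing notes, build mm9 and the tools Bowtie2 2.0.0.7, CASAVA 1.8.2, Cuffdiff 2.0.2, TopHat2 2.0.3 and Trim Galore 0.2.1 were used. What each did, the annotation and whether strand was used is not given in the sources used here. The table of each library holds, per the file headers, the authors' FPKM, a signal of externally scaled fragments and raw fragments. The deposited scaled signal was the raw fragments times 1 factor per library, from 0.664 to 1.56, to a relative deviation of at most 8.81e-06. The deposited raw fragments are estimated counts, of which 88.4% to 89.0% were whole. Every gene stands 3 times in 65415 lines, which left 21805 entries, and entries of 1 symbol were summed.

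Counts rounded to whole numbers were tested with edgeR 4.0.16 in R 4.3.3 (quasi-likelihood, TMM scaling, two-sided) over 12247 genes of mean FPKM of at least 0.5. All 6 libraries were in 1 fit of group means, with 3 residual degrees of freedom and a common coefficient of biological variation of 0.222. The SE was the absolute log2 change divided by the square root of the test's F statistic, and the intervals were built from it. The fits were also run on simulated counts with known fold changes and the same spread for all genes. That setting does not cover markers whose libraries differed widely, such as Postn and Pi16. Limma 3.58.1 on log2(FPKM + 0.5) and DESeq2 1.42.0 were among 17 alternatives. Replicate libraries were distinct beyond sampling of fragments (chi-square per degree of freedom 37.3, 198 and 76.8).

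The 10 members, and the 12 other lists with 136 entries between them, were chosen with earlier results of these data known. All members are described. Of each other list, up to 4 called genes of largest change in WT muscle were chosen, or the 2 of smallest p where none was called, and some of these are given by count alone or not reported here. Groups came from sample titles, and replicates were numbered in accession order.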

Additional observations from a re-analysis of the deposited data

How the results depend on the processing

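Each of the 30 marker results was recomputed under 17 alternatives, 510 values in all: 409 kept direction and side of the threshold, 40 lost a call, 30 gained one and 31 changed sign, none of the last with a call. The cause was not tested beyond what each alternative changes. In denervated against innervated WT, 3 markers were called with library totals alone and 3 in a model of the innervated and denervated WT groups only, against 5, and from 0 to 9 with 1 library left out. Against innervated WT, DKO-labelled muscle had 3 called with quantile normalization, 3 with library totals and 9 in a fit of the 2 groups alone, and from 2 to 9 with 1 library left out. Between the denervated groups 0 were called in every alternative.

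Signs changed for Pdgfra with library totals, to 0.089 in WT and 0.22 in DKO-labelled against innervated muscle. With that scaling the medians of all tested genes were 0.27 and 0.33, so Pdgfra stayed below them. Between the denervated groups Pi16 and Postn turned to 0.27 and 0.10 in limma, 0.24 and 0.048 with a pseudocount of 1, 0.31 and 0.16 with 0.1, 0.23 and 0.017 with quantile normalization (where Cd34 was at 0.018 and Dcn at 0.039), and 0.27 and 0.38 with the replicate block. With 1 library left out, the ranges were, in WT, -0.50 to 0.11 for Pdgfra and -4.30 to 0.10 for Postn. Against innervated WT, DKO-labelled muscle gave -0.34 to 0.18 for Pdgfra. Between the denervated groups they were -0.18 to 0.39 for Pdgfra, -0.69 to 0.70 for Cd34, -0.17 to 0.28 for Ly6a, -0.86 to 0.58 for Clec3b, -0.35 to 0.99 for Dpt, -0.80 to 1.57 for Pi16 and -1.46 to 1.72 for Postn.

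The titles give no replicate numbers. Taking the run of sample numbers as a replicate block, 7 markers were called in WT beside 4461 of all genes, with Cd34 at -1.46 (edgeR adjusted p = 0.0154) and Ly6a at -0.58 (adjusted p = 0.0303) added. Differences between first and second libraries correlated across genes, which are not independent, at 0.20, 0.12 and 0.40 between groups. Over all genes, calls ranged from 202 to 5357 in WT (3512 with all libraries), 0 to 182 between the denervated groups (5) and 661 to 5517 against innervated WT (3843). With 2 libraries a group, leaving 1 out assumes that the lone library varies like the other groups.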
